A study of Bubalus bubalis with 2 samples.

Results

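The tissue inhibitors of metalloproteinases, TIMP1 to TIMP4, were followed in cell-free RNA of buffalo saliva as the 4 rows of the deposited gene table that carry these symbols, out of 20905 genes in all. The table compares 2 libraries of the Murrah breed of water buffalo, kept for milk. One was labelled Estrus, the stage of sexual receptivity, and the other Diestrus, the luteal stage of the oestrous cycle. Both were made from cell-free total RNA of saliva, and the number and age of the animals behind each library are not given in the sources used here. With 1 library per stage there is no replicate check, so every difference below describes these 2 libraries and has no error and no p-value of its own.

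TIMPs are small secreted proteins that block metalloproteinases, the zinc enzymes that cut collagen and other matrix proteins. The amino-terminal domain of a TIMP wedges into the active site of the enzyme, and the carboxy-terminal domain binds some enzymes before they are activated. TIMP1 and TIMP2 are soluble, TIMP3 is held in the extracellular matrix and also blocks ADAM and ADAMTS enzymes, and TIMP4 has the most restricted expression of the family. In humans TIMP1 is a known component of saliva, and the series title puts it forward as a possible marker of estrus.

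The level of a gene is given in FPKM, the number of sequenced fragments scaled to transcript length and to library size, as the authors deposited it. Levels of different genes can therefore be set side by side as far as the lengths used are right. The deposited description of TIMP2 names it a fragment, and the length used for it was not checked. The FPKM values summed to 1016100 in the estrus library and 521566 in the diestrus library. On a minority of short loci the values lay on whole multiples of a single fragment's worth. These were 38 of 1075 loci scanned in estrus and 107 of 1237 in diestrus. This step was 0.231 FPKM per fragment per kb of effective length in estrus and 1.25 FPKM at diestrus. By the step, a fragment was worth 5.41 times as much in the diestrus library, which by the authors' scaling is the shallower one. A level of 3 fragments per kb, used here as the floor of reading, was 0.694 FPKM at estrus and 3.75 FPKM at diestrus. It covers counting error only.

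TIMP1, the soluble inhibitor of most secreted matrix metalloproteinases, stood at 36054 FPKM in the estrus library and at 2988 FPKM in the diestrus library. It was high in both and higher in estrus, by 12.1-fold. TIMP2, a soluble inhibitor that also takes part in the activation of MMP2 at the cell surface, stood at 4011 FPKM at estrus and 801 FPKM at diestrus, 5.0-fold higher in estrus. TIMP3, the matrix-bound member, lay the other way, at 876 FPKM at estrus and 1318 FPKM at diestrus, 1.51-fold higher in diestrus. TIMP4 was listed at 1.57 FPKM at estrus and at 0 at diestrus.

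**Figure D1:**
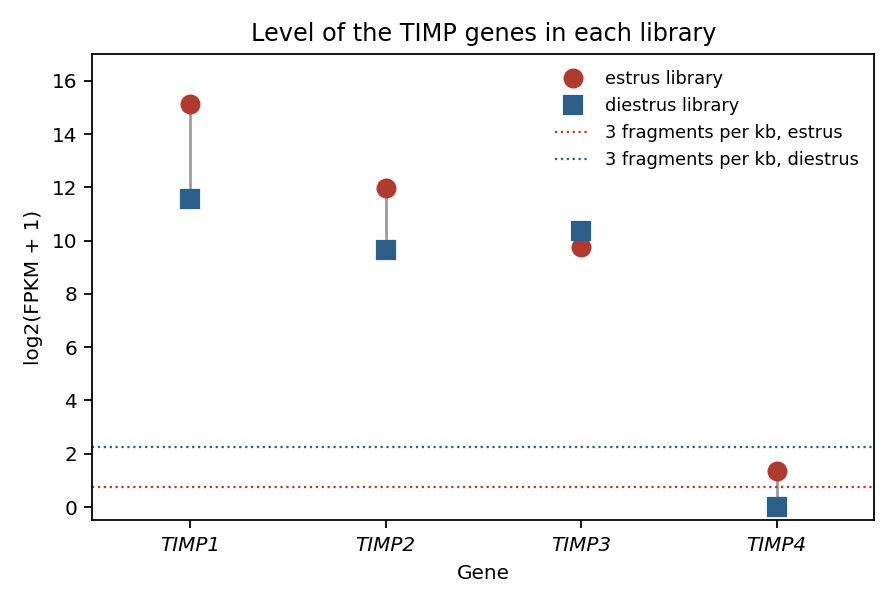
Level of each TIMP gene as log2(FPKM + 1) in the estrus library (red circles) and the diestrus library (blue squares), 1 library per stage, with dotted lines at 3 fragments per kb of effective length in each library. TIMP1 and TIMP2 are higher in estrus, TIMP3 is slightly higher in diestrus, and TIMP4 is far below the other members, with its estrus value under the diestrus line.

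Ratios below are log2((estrus FPKM + 1)/(diestrus FPKM + 1)), so a positive value is higher in estrus. The pseudocount of 1 FPKM understates the difference of low genes. The log2 ratio was 3.59 for TIMP1, 2.32 for TIMP2 and -0.59 for TIMP3. A gene was counted when its mean over both libraries was at least 1 FPKM, and it was called apart at 2-fold or more. Of the 4 TIMP genes 3 were counted, of which 2 were called higher in estrus, 0 were called lower and TIMP3 lay between. Among all 8269 counted genes, 31.3% were called higher in estrus and 33.1% lower, so a 2-fold difference in either direction was common between these libraries. The median log2 ratio of all counted genes was -0.016.

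These differences depend in size on how the libraries are scaled. Making the upper quartiles of the libraries equal moved the median of all counted genes to -0.35, and making the FPKM sums equal moved it to -0.84. TIMP1 remained called higher in estrus under both, with log2 ratios of 3.20 and 2.63, and TIMP2 with 1.93 and 1.36. TIMP3 stayed on the diestrus side, at -0.98 with equal upper quartiles and at -1.55 with equal FPKM sums, where it passed 2-fold.

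For TIMP1, TIMP2 and TIMP3 the depth of the libraries is no close limit. By the step of each library, the lowest of their values, TIMP2 at diestrus, corresponds to about 640 fragments per kb, and the highest, TIMP1 at estrus, to about 155960. For TIMP4 it is. Its estrus value corresponds to 6.80 fragments per kb, and the same FPKM in the diestrus library would be 1.26 fragments per kb, under the floor. A difference of TIMP4 between the libraries was not detectable at this depth, and its 0 at diestrus is not read as absence.

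Within each library the inhibitors held very different places. TIMP1 had rank 3 at estrus, after OPRM1 (129018 FPKM) and PPARGC1A (92833 FPKM) and before the epithelial keratin KRT6A (30046.5 FPKM), and it held 3.55% of the FPKM of that library. In diestrus it had rank 24, next to COL1A1, a chain of type I collagen, at 3029 FPKM, and held 0.573%. TIMP2 had rank 31 at estrus, just above SPARC, a collagen-binding matrix protein, at 3903 FPKM, and rank 98 at diestrus, between RPSA, a ribosomal protein, at 808 FPKM and SMIM4 at 792 FPKM.

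TIMP3 held the higher place in diestrus, unlike the soluble members. It had rank 148 at estrus, next to PSENEN, a subunit of gamma-secretase, at 887 FPKM, and rank 57 at diestrus. TIMP4 had rank 6328 at estrus, between CAMK2D and ACRBP, with 24.9% of the genes above 0 in that library below it. The lowest such share among the other three members was 98.2% in estrus, for TIMP3, and 99.0% in diestrus, for TIMP2. Rank does not change with the scaling of a library, so the crossing of TIMP2 and TIMP3 in the order of genes holds under any of the scalings. It does depend on the length used for TIMP2, which is described as a fragment.

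**Figure D2:**
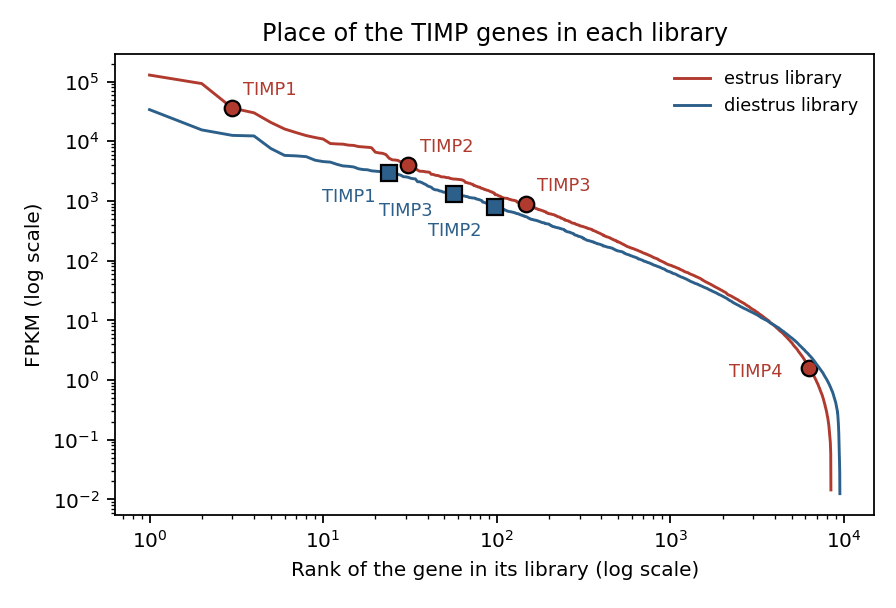
FPKM of every gene above 0.01 FPKM against its rank in the estrus library (red line) and the diestrus library (blue line), both axes on log scales, with the TIMP genes marked as circles (estrus) and squares (diestrus). TIMP2 stands before TIMP3 at estrus (ranks 31 and 148) and after it in diestrus (ranks 98 and 57).

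The balance among the inhibitors is a ratio within a library and is also free of the scaling between libraries. It is not free of the transcript lengths used, of which that of TIMP2, described as a fragment, was not checked. The summed level of the family was 40942 FPKM at estrus and 5107 FPKM at diestrus. TIMP1 made up 88.1% of this sum in estrus and 58.5% in diestrus, so it was the leading inhibitor in both. TIMP2 made up 9.80% in estrus and 15.7% in diestrus. TIMP3 made up 2.14% in estrus and 25.8% in diestrus, and TIMP4 made up 0.00384% in estrus.

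The second place in the family changed between the libraries. TIMP2 was 4.58 times the level of TIMP3 at estrus, whereas in diestrus TIMP3 was 1.64 times the level of TIMP2. TIMP1 was 8.99 times the level of TIMP2 at estrus and 3.73 times in diestrus. TIMP1 was 41.2 times the level of TIMP3 at estrus and 2.27 times in diestrus, so the ratio of TIMP1 to TIMP3 differed 18.2-fold between the libraries. Without TIMP1, the sum of the remaining members was 4888 FPKM at estrus and 2120 FPKM at diestrus, a 2.31-fold difference. As a share of its library the same sum was 0.481% and 0.406%, so the size of this difference depends on the scaling. The library share itself depends on few genes, since OPRM1 and PPARGC1A held 21.8% of the estrus FPKM sum. Of the sum without TIMP1, TIMP2 held 82.1% in estrus and TIMP3 held 62.2% in diestrus.

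**Figure D3:**
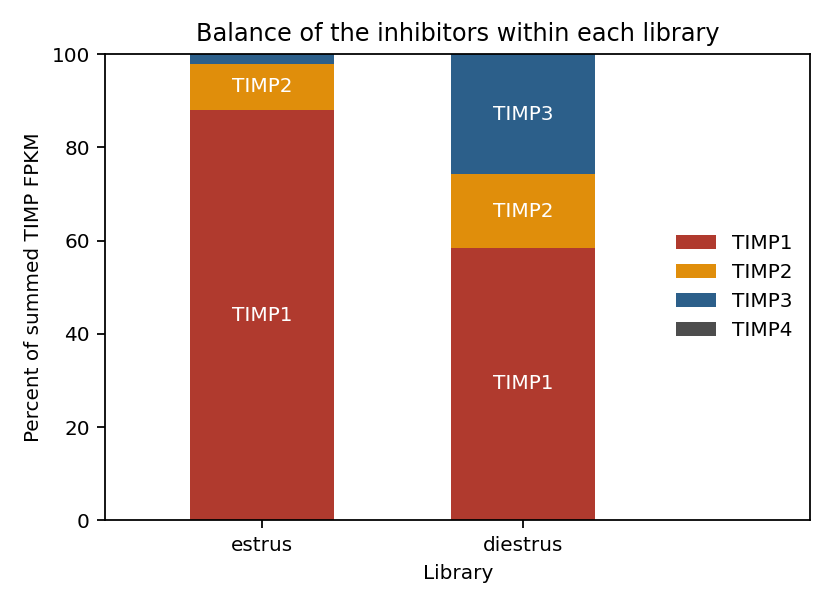
Percent of the summed FPKM of the 4 TIMP genes held by each gene (colours) in the estrus and the diestrus library. TIMP1 holds 88.1% in estrus and 58.5% in diestrus, and TIMP3 holds 2.14% and 25.8%.

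In mammals TIMP1, TIMP3 and TIMP4 lie inside introns of synapsin genes, which encode proteins of synaptic vesicles, so a merged locus can hold an inhibitor together with its host gene. TIMP1 is listed on chromosome X (91232235 to 91236073), on a locus of its own. The build is not given in the sources used here, and chromosomes are numbered as in cattle. Its nearest row, the pseudogene ENSBTAG00000005042, ended 4178 bases away and was listed at 0 at estrus and 3.82 FPKM at diestrus. The next rows were ENSBTAG00000017660, at 1.01 FPKM at estrus and 6.50 FPKM at diestrus, and ZNF81, at 0 in both. ARAF, a kinase of the MAP kinase cascade, stood at 163 FPKM at estrus and 16.6 FPKM at diestrus. Of these 4 rows within 50000 bases ARAF was the highest, at 0.451% of the TIMP1 level at estrus and 0.556% at diestrus, and all of them lay outside its locus. SYN1 was not analysed here.

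TIMP2 is listed on chromosome 19 (54079297 to 54131052). It shares this locus with the pseudogene ENSBTAG00000039283, which was listed at 0 in both libraries. The rows beside it were LGALS3BP, a secreted glycoprotein, at 147 FPKM at estrus and 218 FPKM at diestrus, and the ubiquitin peptidase USP36 at 4.72 and 1.57 FPKM. TIMP3 is listed on chromosome 5 (71475847 to 71926718), a span of 450872 bases that is also the locus of SYN3. SYN3 was listed at 0 at estrus and 0.804 FPKM at diestrus, and the neighbours FBXO7 and BPIFC stood at 2.76 and 0 FPKM at estrus and at 13.3 and 0 FPKM at diestrus. TIMP4 on chromosome 22 (57571319 to 57619684) shares its locus with SYN2, which was at 0 in both libraries. How reads on a shared locus were divided between its rows was not tested.

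The TIMP genes were also set beside the abundant genes of the table. Of 206 genes with a mean of at least 500 FPKM, a level chosen after the values were seen, 42.2% were called higher in estrus and 11.2% lower, and their median log2 ratio was 0.76. A gene can pass this level through 1 library alone. The lean to estrus depended on the scaling, since with equal FPKM sums 24.3% were higher and 28.2% lower, with a median of -0.20. TIMP1 had the place 17 from the highest log2 ratio among them, and TIMP2 the place 40. TIMP3 had the place 173, with 33 genes lower. Among all 8269 counted genes TIMP1 had the place 354, and of the 353 genes with a larger ratio 16 had a mean of at least 500 FPKM.

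**Figure D4:**
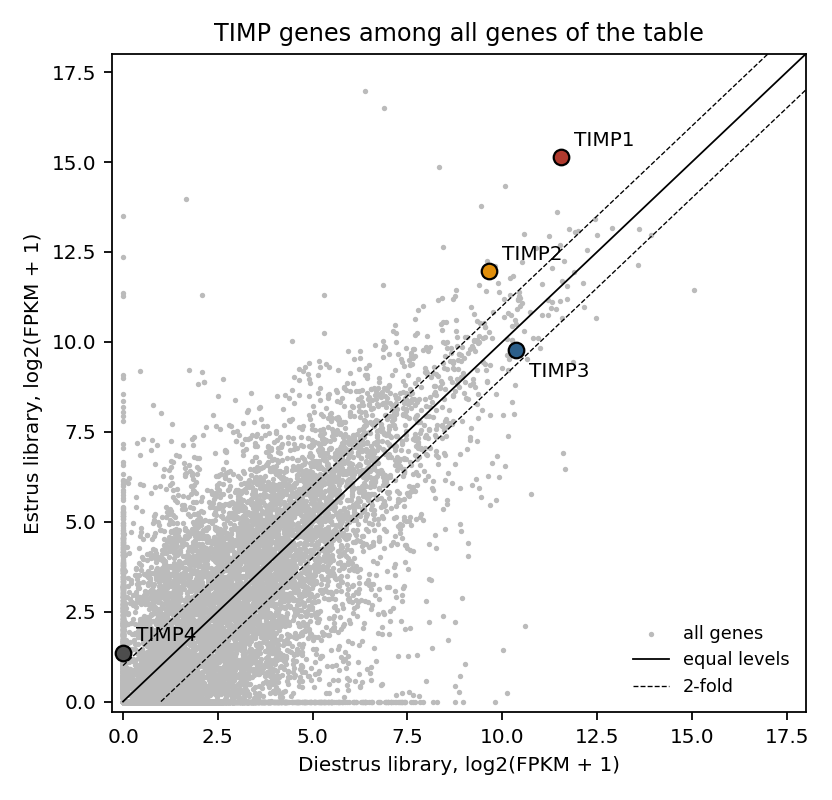
Level of every gene of the table as log2(FPKM + 1) in the diestrus library (x axis) and the estrus library (y axis), with the TIMP genes in colour, a solid line of equal levels and dashed lines at 2-fold. TIMP1 and TIMP2 lie above the 2-fold band, TIMP3 lies inside it, and TIMP4 lies on the axis of genes at 0 at diestrus.

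The genes nearest to each inhibitor were sought among rows with a gene symbol only. Euclidean distance on the log2(FPKM + 1) levels of the 2 libraries was used. It gives a likeness in level and ratio over 2 points and no more. TIMP1 had no close neighbour among the rows with a symbol. The nearest was MT2A, a metal-binding metallothionein, at 20731 FPKM at estrus and 1084 FPKM at diestrus, at a distance of 1.67, before the cytoskeletal actin ACTG1 (2.11) and the ribosomal protein gene RPL29 (2.23). TIMP2 lay close to ACTA2, the smooth muscle actin, at 4394 FPKM at estrus and 902 FPKM at diestrus, at a distance of 0.22. TMSB10, an actin-binding thymosin, followed at 0.28 and SERF2 at 0.46. TIMP3 lay close to SERPINH1, the collagen chaperone, at 1064 FPKM at estrus and 1217 FPKM at diestrus, at a distance of 0.30. MMP2, gelatinase A, followed at 0.38 and the polyubiquitin gene UBB at 0.56.

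The targets of the inhibitors were counted only in part, as were all genes of the series, with 8269 of 20905 counted. Of these 8269 genes 31.3% were called higher in estrus and 33.1% lower. Every list count below is to be read beside these shares. Of 11 rows for secreted matrix metalloproteinases 5 were at 0 in both libraries and 3 were counted. MMP2 stood at 1082 FPKM at estrus and 1126 FPKM at diestrus, above TIMP3 at estrus and above TIMP2 at diestrus. MMP19 was higher in estrus, at 23.3 FPKM against 5.63 FPKM at diestrus, and MMP28, epilysin, was lower, at 3.41 against 19.9 FPKM. Of 6 membrane-type enzymes 2 were counted. MMP14, the membrane-type enzyme that activates the proenzyme of MMP2 together with TIMP2, stood at 150.0 FPKM at estrus and 56.1 FPKM at diestrus, and MMP24 was listed at 0 at estrus and at 9.52 FPKM at diestrus. With equal FPKM sums MMP14 (0.45) was no longer called and MMP19 lay just under 2-fold.

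The summed level of the TIMP genes was 36.9 times that of the secreted matrix metalloproteinases in estrus and 4.43 times in diestrus, an 8.32-fold difference. MMP2 held nearly all of the enzyme sums, 1110 FPKM at estrus and 1153 FPKM at diestrus. These are ratios of transcript levels and not of proteins or of activity.

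ADAM and ADAMTS enzymes, some of which TIMP3 can block, were mostly low. Of 9 ADAM rows 5 were counted, with 3 higher in estrus, 1 lower and 1 within 2-fold, and their median log2 ratio was 1.08. ADAM8 stood at 20.9 FPKM at estrus and 9.39 FPKM at diestrus, and ADAM10, a main sheddase of cell surface proteins, at 9.99 and 5.54 FPKM. ADAM17, the enzyme that releases tumour necrosis factor from cells, was the member lower in estrus, at 1.69 against 5.28 FPKM. ADAM19 stood at 15.4 FPKM at estrus and 3.38 FPKM at diestrus and ADAM9 at 6.28 and 0.338 FPKM, both with a diestrus value under the floor. Above the floor in both libraries 3 members were left, with 1 higher, 1 lower and 1 between, and ADAM8 lost its call with equal upper quartiles (0.72).

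Of 19 ADAMTS rows 6 were counted, with 3 higher, 2 lower and 1 between and a median of 0.53. ADAMTS2, which removes the amino-terminal propeptide of fibrillar procollagens, led them at 144 FPKM at estrus and 54.0 FPKM at diestrus. The aggrecan-cutting enzymes ADAMTS4 and ADAMTS1 stood at 8.11 and 3.53 FPKM at estrus and at 0 at diestrus. ADAMTS5 and ADAMTS15 stood at 0.0887 and 0 FPKM at estrus and at 5.53 and 3.73 FPKM at diestrus. In all of the latter 4 genes 1 or both values lay under the floor. The summed TIMP level was 755 times that of the ADAM list in estrus and 210 times in diestrus, and 261 and 74.4 times that of the ADAMTS list.

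**Figure D5:**
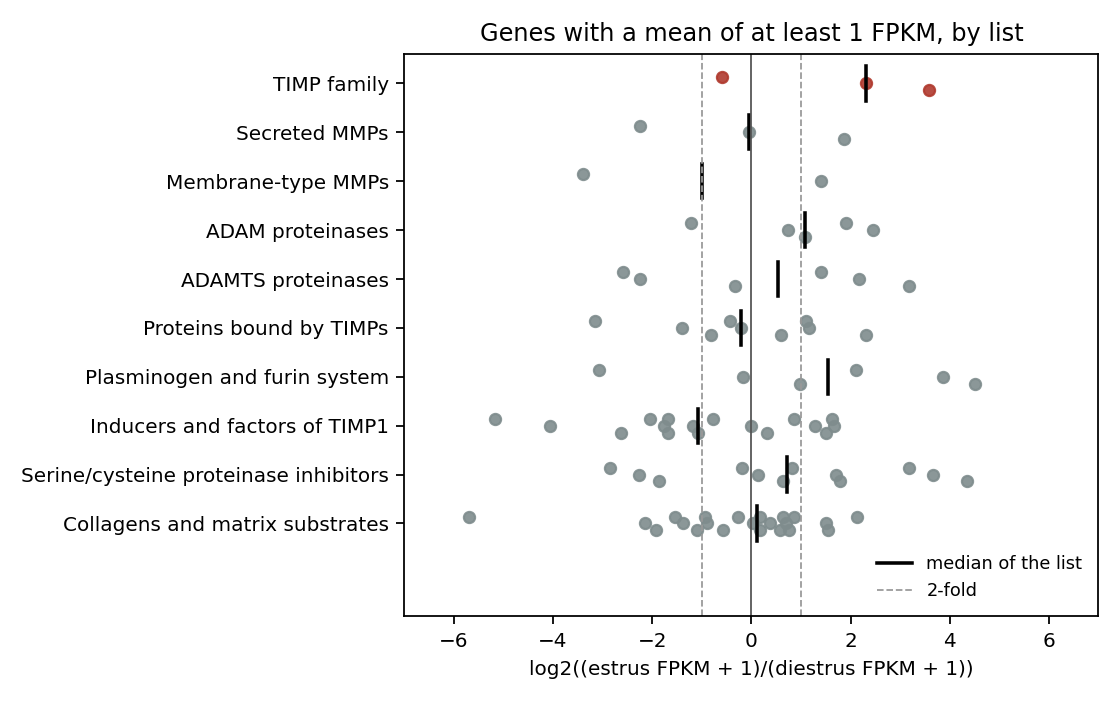
Log2 ratio of estrus over diestrus, with a pseudocount of 1 FPKM, for each gene with a mean of at least 1 FPKM (points) in the TIMP family and the lists of its targets, partners and substrates, with the median of each list (black bars) and dashed lines at 2-fold. The median of the TIMP family is 2.32, that of the plasminogen and furin list 1.55, and that of the inducers and factors of TIMP1 -1.08.

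Proteins that bind TIMPs at the cell surface or in the matrix were divided. Of 11 rows 9 were counted, with 3 higher in estrus, 2 lower and 4 between and a median of -0.22. CD63, the tetraspanin that binds TIMP1 at the cell surface, stood at 21.4 FPKM at estrus and 9.39 FPKM at diestrus, and its partner integrin ITGB1 at 28.1 and 32.8 FPKM. LRP1, the endocytic receptor that clears TIMPs and their complexes, stood at 86.7 and 38.0 FPKM. ITGA3, the integrin chain described as a partner of TIMP2, stood at 153 FPKM at estrus and 206 FPKM at diestrus, CD44 at 207 and 137 FPKM, and APP, the amyloid precursor, at 41.5 and 112 FPKM. IGF1R was the other member called higher, at 17.5 FPKM at estrus against 2.74 FPKM at diestrus, a value under the floor. CD74, a further binding partner of TIMP1, was listed at 0 at estrus and at 7.95 FPKM at diestrus. With equal upper quartiles CD63 (0.75) and LRP1 (0.79) lost their calls, which left IGF1R as the 1 member higher in estrus.

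Of 7 rows for further genes with a TIMP-like module or an inhibitory role, 4 were counted. PCOLCE and PCOLCE2, which carry a netrin domain like that of the TIMPs but enhance the procollagen C-proteinase and do not inhibit it, were the 2 called higher. With equal upper quartiles PCOLCE lost its call (0.96). PCOLCE stood at 137 FPKM at estrus and 53.1 FPKM at diestrus and PCOLCE2 at 114 and 7.96 FPKM. The proteoglycan SPOCK1 was lower in estrus, at 2.83 against 7.55 FPKM, and the Kunitz-type inhibitor TFPI2 lay between, at 6.71 and 9.75 FPKM.

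The plasminogen system activates several metalloproteinases and has its own inhibitors. Of 11 rows for it and for furin 6 were counted, with 3 higher in estrus, 1 lower and 2 between and a median of 1.55. SERPINB2, an inhibitor of plasminogen activators, stood at 634 FPKM at estrus and 42.5 FPKM at diestrus. PLAUR, the urokinase receptor, stood at 515 and 21.8 FPKM and PLAU, urokinase, at 59.1 and 12.8 FPKM. FURIN, a proprotein convertase, was the member lower in estrus, at 1.32 against 18.5 FPKM, and BSG, an inducer of metalloproteinases, stood at 669 and 752 FPKM. PLAT, the tissue-type activator, stood at 12.9 and 6.01 FPKM.

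Genes described as inducers or transcription factors of TIMP1 were divided. Of 24 rows 17 were counted, with 4 higher in estrus, 9 lower and 4 between and a median of -1.08. Among all counted genes 31.3% were higher and 33.1% lower. IL6 stood at 123 FPKM at estrus and 49.6 FPKM at diestrus and TGFB1 at 26.9 and 8.85 FPKM, both higher in estrus. JUNB, a subunit of the AP-1 factor, stood at 69.6 and 289 FPKM, STAT3 at 21.3 and 74.7 FPKM and RELA, a subunit of NF-kB, at 21.4 and 70.7 FPKM, all lower in estrus. JUN lay between at 94.1 and 75.3 FPKM. Above the floor in both libraries 10 members were left, with 2 higher, 4 lower and 4 between and a median of -0.39. That filter drops every member under the floor in either library, among them FOS at 0 and 34.9 FPKM and FOSL2 at 0.102 and 17.3 FPKM. FOSL1 and IL11, both higher in estrus, were dropped too. With equal upper quartiles IL6 lost its call (0.91).

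Collagens and other matrix substrates of the enzymes were counted on 22 of 24 rows, with 3 higher in estrus, 6 lower and 13 between and a median of 0.10. COL6A2 stood at 3131 FPKM at estrus and 2103 FPKM at diestrus and COL1A1 at 1630 and 3029 FPKM. BGN, the proteoglycan biglycan, stood at 2334 and 1370 FPKM and COL1A2 at 1361 and 748 FPKM. DCN, decorin, was higher in estrus at 1274 against 436 FPKM, and COL6A1 was lower at 443 against 1294 FPKM.

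Inhibitors of other proteinase classes were counted on 12 of 21 rows, with 5 higher, 3 lower and 4 between and a median of 0.73. CST6, a secreted cystatin, stood at 4786 FPKM at estrus and 1471 FPKM at diestrus, above TIMP2 in both libraries and below TIMP1 in both. The intracellular cystatin CSTB stood at 1269 and 139 FPKM, CST3, cystatin C, at 716 and 458 FPKM, and PCSK1N, an inhibitor of a proprotein convertase, at 392 and 114 FPKM.

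The summed level of stromal cell markers was also higher in estrus as deposited, where the FPKM sums of the libraries themselves differed 1.95-fold. All 15 fibroblast and smooth muscle markers were above 0 in both libraries, with a summed level of 39078 FPKM at estrus and 17514 FPKM at diestrus, and 6 were higher in estrus, 2 lower and 7 between. Among all counted genes 31.3% were higher and 33.1% lower. S100A4 stood at 14005 FPKM at estrus and 689 FPKM at diestrus, TAGLN, a contractile protein, at 8173 and 1536 FPKM, and VIM, vimentin, at 2014 and 4579 FPKM. VIM and PDGFRA (0.782 and 26.8 FPKM) were the 2 lower ones. Within 2-fold, COL1A1, COL3A1 and PDGFRB leaned to diestrus, COL1A2, FN1 and LUM leaned to estrus, and SPARC was nearly level. S100A4 was the largest part of the sum at estrus, and the ratios below were not recomputed without it. Set against the summed level of these markers, TIMP1 was 0.923 times as high in estrus and 0.171 times in diestrus, a 5.41-fold difference. TIMP2 differed 2.24-fold on the same measure, with the higher value in estrus, and TIMP3 differed 3.36-fold with the higher value in diestrus. The part of these markers in the results was not tested. The RNA is cell-free, so these sums do not measure cell numbers, and which cells it came from was not tested.

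Of the markers of the oral lining 9 of 12 counted members were lower in estrus and 1 was higher, KRT6A. Among all counted genes 33.1% were lower. The median log2 ratio of the list was -3.37. Of the lower markers KRT17, KRT14, KRT16, KRT15, IVL and DSP had an estrus value under the floor. At diestrus KRT17 stood at 1117 FPKM, KRT14 at 223 FPKM, KRT16 at 207 FPKM and KRT15 at 198 FPKM, all far over the floor there. IVL and DSP were low there too, at 5.02 and 2.24 FPKM. ECM1, KRT5 and PERP were the lower ones above the floor in both libraries. The summed level of the oral lining markers was 30196 FPKM at estrus, nearly all of it from KRT6A, and 2900 FPKM at diestrus. The sum leaned to estrus through KRT6A (30046.5 and 323 FPKM), while most counted members were lower in estrus. Markers of the salivary gland were sparse, with 8 of 11 rows at 0 in both libraries, among them AQP5, a water channel of secretory cells. CST6, SLPI and AZGP1 were the 3 counted ones, and CST6 and SLPI also stand in the list of proteinase inhibitors. Their summed level was 4805 FPKM at estrus and 1474 FPKM at diestrus, nearly all of it from CST6. Of the neutrophil markers 11 of 13 rows were at 0 in both, with a summed level of 0 at estrus and 21.2 FPKM at diestrus, of the macrophage and monocyte markers 6 of 10 (56.2 and 238 FPKM), of the lymphocyte markers 8 of 12 (124 and 3.69 FPKM) and of the erythroid markers 5 of 7 (5.81 and 78.1 FPKM). The macrophage and monocyte sums came mostly from APOE, at 36.1 FPKM at estrus and 233 FPKM at diestrus. The 2 other counted members went the other way, CD14 at 15.0 and 4.37 FPKM and CD68 at 4.36 and 1.12 FPKM. CD247 gave 115 FPKM of the lymphocyte sum at estrus, and SLC25A37 gave 71.4 FPKM of the erythroid sum at diestrus. The part of all these markers in the TIMP levels was not tested.

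In the authors' deposited table TIMP1 had a p-value of 5e-05 and a q-value of 0.0646. How the spread was modelled from 1 library per stage is not given in the sources used here. It was the 1 gene at the smallest p-value in the table, and the next smallest p-value was 0.00455, with a q-value of 0.413. The authors' deposited table called 49 of the 1253 genes that had a p-value under 1, or 3.91%, and of the TIMP genes it called TIMP1. For TIMP2 the authors' deposited table gave a p-value of 0.256 and for TIMP3 one of 0.624, both with a q-value of 0.797, and TIMP4 had a p-value of 1. Among the 49 genes that the authors' deposited table called, 39 were listed at 0 in 1 of the libraries, and TIMP1 was among the 10 with a value above 0 in both.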

How the data were processed

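Cell-free RNA of saliva was sequenced from TruSeq libraries, per the labels' protocols. Per the submitters' processing notes, the tools were TopHat, Bowtie, Cufflinks and Cuffdiff; versions and the genome build are not given in the sources used here. Each gene has 1 FPKM value per library, made by the authors, per the file headers. The deposited log2 fold change is diestrus over estrus, as checked on 7344 of 7344 genes within 0.001. The authors' p-value, q-value and test statistic, a deposited score, were copied and not recomputed. The authors' calls matched a p-value under 0.05 on all 20905 genes.

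Samples were grouped by the labelled stage, and no test was possible with 1 library each. Ratios, ranks and shares were computed with Python 3.11.15, numpy 2.4.6 and pandas 2.3.3. Of the TIMP symbols 4 of 4 were in the buffalo RefSeq table of assembly NDDB_SH_1, used for names only. Positions count from 1; starts were read as counting from 0, since the spans of 124 of 134 olfactory receptor loci were then multiples of 3. Of all rows 1830 share a locus with another row.

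The fragment step was the value at which the most loci of 400 to 3000 bp lay within 0.5% of 1 to 3 fragments, with 186 bases taken from each span (38 loci in estrus and 107 in diestrus, against medians of 1 and 4 on other steps). On simulated libraries with an exact step built in, the error of the step was at most 0.572%. That does not show how closely the step holds in these data. Genes named are the TIMP genes, rows within 50000 bases and the neighbours of the TIMP genes in rank. For each TIMP gene the 3 nearest by level among rows with a symbol are also named. From each list the 6 counted members with the highest mean are named, besides members that a count singles out. The members and lists were chosen with earlier results of these data known. Other pseudocounts, filters and scalings were tried. An item of the lists is not reported here and was left out of their counts.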

Additional observations from a re-analysis of the deposited data

How the results depend on the processing

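The direction of TIMP1, TIMP2 and TIMP3 was kept under both other pseudocounts and both scalings. With a pseudocount of 10 FPKM the log2 ratios were 3.59, 2.31 and -0.58, with equal upper quartiles 3.20, 1.93 and -0.98, and with equal FPKM sums 2.63, 1.36 and -1.55. TIMP4 has no ratio, since it is listed at 0 in diestrus. Among rows with a gene symbol TIMP1, TIMP2, TIMP3 and TIMP4 had ranks 3, 20, 95 and 5688 in estrus, and the first 3 had ranks 12, 49 and 26 in diestrus. Without TIMP1 in the sum, TIMP2, TIMP3 and TIMP4 held 82.1%, 17.9% and 0.0322% in estrus, and TIMP2 and TIMP3 held 37.8% and 62.2% in diestrus. Genes called higher and lower in estrus numbered 2590 and 2740, against 1519 and 942 with a mean of at least 10 FPKM and 87 and 23 with a mean of at least 500 FPKM, the latter chosen after seeing the data; fewer genes are tested under both. With equal upper quartiles they numbered 2118 and 3290. Counts within the lists stayed within 1.5 times in 20 of 22 cases with no filter and in 19 of 22 with equal upper quartiles. These cases include the synapsin host genes, whose count was 0 at every setting and could not move. Many other counts were small, and a change from 3 to 2, as for the ADAM list, still lies within 1.5 times. No paired analysis was possible because each stage has 1 library. With equal FPKM sums, a setting for the lists chosen after seeing the data, the medians of the ADAMTS list, the TIMP-like and inhibitory genes, the serine and cysteine proteinase inhibitors and the matrix substrates turned to -0.18, -0.47, -0.23 and -0.84. Depth limits TIMP4 and every list member with a value under 3 fragments per kb, such as MMP24, IGF1R and CD74.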

Other observations

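The p-value of TIMP1 in the authors' deposited table is not ordered with its test statistic. Of 1205 genes with a statistic and a p-value under 1 in the authors' deposited table, 18 had a larger absolute statistic than TIMP1, whose statistic there was -1.79, negative values being higher in estrus. The p-values of those 18 genes in the authors' deposited table ran from 0.0315 for KRT6A to 0.464 for CTSZ, a lysosomal cathepsin at 2541 FPKM at estrus and 38.6 FPKM at diestrus. MT2A, the gene with a symbol nearest to TIMP1 in level, had a statistic of -2.14 and a p-value of 0.238 in the authors' deposited table.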
